A study of Mus musculus with 6 samples.

Results

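The 4 nectins (Nectin1, Nectin2, Nectin3 and Nectin4), afadin (Afdn) and Ceacam1 were followed in epithelial cells of the embryonic mouse lung in control and Grhl2_cKO samples, Grhl2 being a transcription factor. They are 6 of the 27179 genes in the deposited count table, found by their Entrez numbers, with the older names Pvrl1, Pvrl2, Pvrl3 and Pvrl4 for the nectins and Mllt4 for afadin matched to the same numbers. Each of the 6 passed the filter on low counts. The samples are bulk RNA of EpCAM-positive cells, sorted by flow from E16.5 lungs and sequenced as 6 libraries. Control libraries (n = 3, replicates 1, 3 and 7) have the genotype Shh-Cre;Grhl2f/+, with 1 floxed and 1 intact allele of Grhl2, and knockout libraries, called Grhl2_cKO (n = 3, replicates 1, 5 and 10), have the genotype Shh-Cre;Grhl2f/-, with 1 floxed and 1 null allele. Both genotypes carry Shh-Cre, in which Sonic hedgehog (Shh), a gene active in lung epithelium, drives the recombinase, so 1 Grhl2 allele is left in recombined control cells. Each genotype has 2 male samples and 1 female sample, the female ones being control replicate 7 and Grhl2_cKO replicate 1. Whether each sample is a separate embryo is not stated, so p-values reflect only how far these samples vary, which may be technical. Values by library are given throughout in the order control replicates 1, 3, 7, then Grhl2_cKO replicates 1, 5, 10.

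Nectins are immunoglobulin-type adhesion proteins that bind each other across the gap between neighbouring cells. Their tails bind afadin, which ties them to actin, and nectins and afadin work beside cadherins in building the adherens junction of epithelia. Ceacam1 is another immunoglobulin-type adhesion protein, found on epithelia, endothelium and immune cells, whose long form carries inhibitory tail motifs that recruit tyrosine phosphatases. Grhl2 is known as a regulator of junction genes in epithelia.

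Nectin4 and Ceacam1 were each far below control in Grhl2_cKO, Nectin3 was slightly higher, and Nectin1, Nectin2 and afadin did not pass the test. To show the start regions of the genes that fell beside one that did not, the 250 bases before the transcript start that the RefSeq promoter table gives for Nectin4, Ceacam1 and Nectin2 are printed 5′ to 3′ on the strand of the gene (GRCm38.p6, the assembly of mm10), with each CG pair in capitals. The windows are chr1:171369923-171370172 on the plus strand, chr7:25477626-25477875 on the minus strand and chr7:19749574-19749823 on the minus strand.
Nectin4: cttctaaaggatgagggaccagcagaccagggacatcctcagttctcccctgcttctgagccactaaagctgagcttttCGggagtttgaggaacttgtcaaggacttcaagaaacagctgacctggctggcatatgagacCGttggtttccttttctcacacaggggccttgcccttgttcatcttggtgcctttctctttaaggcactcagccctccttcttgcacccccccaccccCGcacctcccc
Ceacam1: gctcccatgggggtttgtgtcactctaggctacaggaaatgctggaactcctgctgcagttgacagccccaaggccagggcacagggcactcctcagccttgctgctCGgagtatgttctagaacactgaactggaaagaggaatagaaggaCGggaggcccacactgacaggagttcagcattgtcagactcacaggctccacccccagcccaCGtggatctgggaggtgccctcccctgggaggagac
Nectin2: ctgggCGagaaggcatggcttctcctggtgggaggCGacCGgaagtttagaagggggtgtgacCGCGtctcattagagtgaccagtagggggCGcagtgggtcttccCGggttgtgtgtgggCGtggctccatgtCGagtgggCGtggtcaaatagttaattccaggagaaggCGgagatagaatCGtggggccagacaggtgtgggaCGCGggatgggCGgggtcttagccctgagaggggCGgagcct

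The promoter table held 5 of the 6 genes, the exception being Nectin1. For Ceacam1, Nectin3 and Afdn its start lies inside the RefSeq span of the gene given with the values, so part of the Ceacam1 and Afdn windows and all of the Nectin3 window fall within that span. The windows of Nectin4 and Ceacam1 hold 3 CG pairs each, that of Nectin2 holds 16, that of Nectin3 30 and that of Afdn 51. The median over 32851 promoters was 6, and 37.8% of promoters have 3 or fewer. Counting CG pairs was chosen after the values of the genes had been seen and describes the sequences only. The grainyhead motif AACCNGTT, searched on both strands, was in none of the 5 windows of 300 bases (250 before to 50 after the start), and 2.09% of all promoters hold it. The looser AACNNGTT, which includes the first motif, was likewise in none of the 5, against 4.20% of all promoters. No match says only that these letters are not in these windows.

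Total counts ranged from 13472216 to 17228762 per library, and levels are given as CPM, counts scaled to a common library size with TMM factors. The most that 0 counts would allow, 3 counts, equals 0.177 to 0.224 CPM. Grhl2, the deleted gene, stood at 147.5 ± 1.60 CPM in control and 109.8 ± 5.01 CPM in Grhl2_cKO (means ± SD over 3 libraries; edgeR adjusted p = 0.0026 for a log2 fold change of -0.43 ± 0.06 SE). Counts cover all exons of the gene, including any that the deletion leaves in place. Epcam, the gene of the protein used in the sort, was at 67.6% of control (edgeR adjusted p = 0.00412), and an effect of that on which cells the sort collected was not tested. Of 14842 genes tested, 537 were called at an edgeR adjusted p under 0.05, or 3.62%, with 2.39% lower and 1.23% higher in Grhl2_cKO. An unadjusted edgeR p under 0.05 was found for 1981 of the 14842 tested genes, and DESeq2 called 669 and limma-voom 543. Every Grhl2_cKO library lay below every control library for 9.89% of tested genes and above for 8.17%. Among the 6 genes described here 2 were called lower and 1 higher, and the groups did not overlap for the same 3.

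**Figure D1:**
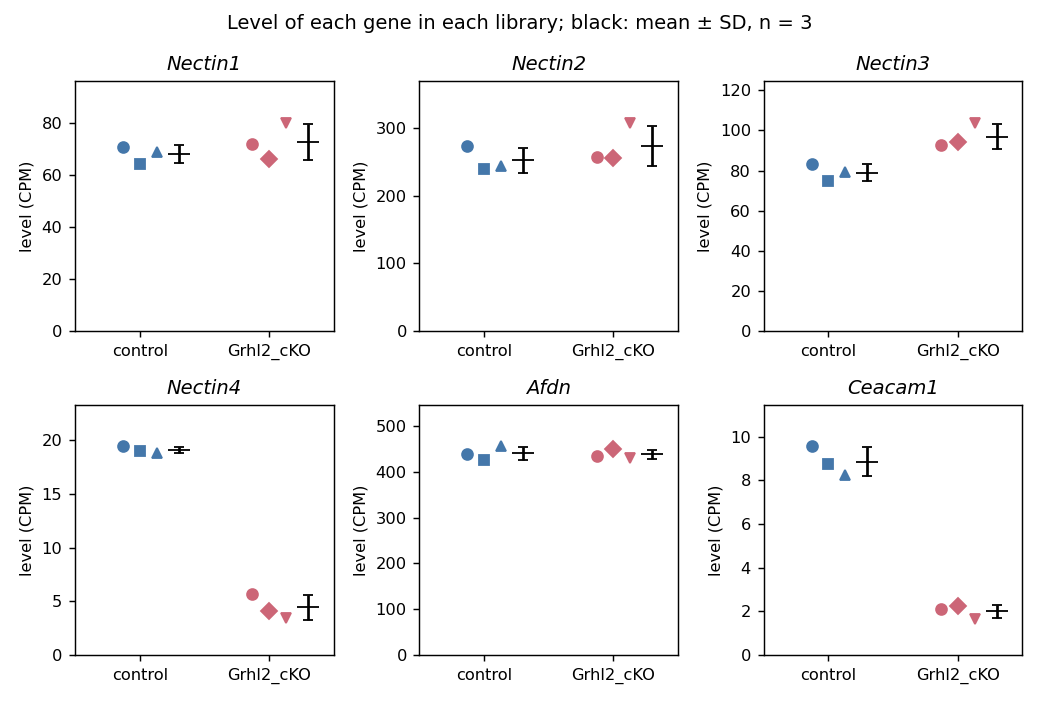
Level of each gene in CPM (vertical axes, from 0) in each library. Blue points are control libraries and red points Grhl2_cKO libraries, 1 marker shape per replicate number, with the mean ± SD in black (n = 3). The Nectin4 points lie at 18.8 to 19.4 CPM in control and 3.43 to 5.71 CPM in Grhl2_cKO, and the Afdn points of the groups overlap.

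Nectin4 (Entrez 71740, chromosome 1, 171370173 to 171388287) encodes the nectin with the most restricted expression in adult tissue, found mainly in epithelia. It held 260, 312 and 292 counts in the controls, or 19.4, 19.0 and 18.8 CPM. In the knockouts it held 95, 64 and 58 counts, or 5.71, 4.11 and 3.43 CPM. The controls lay close together (coefficient of variation 1.59%), and every Grhl2_cKO library was far below them, with replicate 1 the highest of the knockouts. Counting error alone is wider than that control spread. The 260 counts of control replicate 1 have an exact 95% Poisson interval of 229 to 294. The log2 fold change was -2.11 ± 0.17 (± SE, 3 against 3 libraries; 95% interval -2.48 to -1.74; edgeR adjusted p = 0.000125), which left 23.2% of control. Nectin4 ranked 21 from the lowest among the log2 fold changes of all tested genes. Without Grhl2_cKO replicate 1 the log2 fold change was -2.34, and over the 16 alternatives of scaling, filter, tool, covariate and samples it ranged from -2.34 to -1.95, called in each.

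Ceacam1 (Entrez 26365, chromosome 7, 25461702 to 25477647) was lower by a like amount from a lower level. The controls held 128, 144 and 128 counts, or 9.56, 8.76 and 8.25 CPM. The knockouts held 35, 35 and 28 counts, or 2.10, 2.25 and 1.66 CPM. The groups did not overlap, and here replicate 1 was not the highest knockout library. The lowest count, 28, has an exact 95% Poisson interval of 18.6 to 40.5, which covers counting error only and ends below the lowest control count. The log2 fold change was -2.14 ± 0.17 (SE; 95% interval -2.52 to -1.77; edgeR adjusted p = 0.000125), which left 22.6% of control. It was called in each of the 16 alternatives, with values from -2.23 to -2.02.

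In bulk RNA, fewer cells of a type and less RNA per cell cannot be told apart. To set both genes against other epithelial transcripts, their counts were divided by those of Cdh1 (E-cadherin) and of Epcam in the same library. Per 1000 counts of Cdh1, Nectin4 held 22.2, 26.2 and 26.5 counts in the controls and 8.93, 7.04 and 4.95 in the knockouts. Ceacam1 held 10.95, 12.1 and 11.6 counts per 1000 of Cdh1 in controls and 3.29, 3.85 and 2.39 in Grhl2_cKO. Both genes thus stayed apart between the groups on this scale, at 27.9% and 27.5% of control. Per count of Epcam, which is itself lower in Grhl2_cKO, they stood at 34.9% (Nectin4) and 34.0% (Ceacam1) of control, with no overlap of the groups. This ratio was chosen after the values were seen and was not tested.

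Nectin3 (Entrez 58998, chromosome 16, 46387665 to 46498535), a nectin that binds Nectin1 and Nectin2 across the junction, was the 1 gene of the 6 called higher. It stood at 83.2, 74.6 and 79.1 CPM in the controls, then 92.8, 94.3 and 103.8 CPM in the knockouts. Each knockout library lay above each control library, with replicate 10 the highest. The log2 fold change was 0.30 ± 0.07 (SE; 95% interval 0.15 to 0.45; edgeR adjusted p = 0.04), or 1.23-fold. It was no longer called when sex was a covariate (adjusted p = 0.0635) or without control replicate 3 (0.17), control replicate 7 (0.112) or Grhl2_cKO replicate 1 (0.0593), 5 (0.0963) or 10 (0.137), and over all its alternatives the adjusted p ran from 0.0118 to 0.17, while the log2 fold change stayed between 0.25 and 0.35.

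Nectin1 (Entrez 58235, chromosome 9, 43737075 to 43807461), a broadly expressed nectin, did not pass. It stood at 70.9, 64.4 and 68.8 CPM in control and at 72.0, 66.3 and 80.1 CPM in Grhl2_cKO. Nectin2 (Entrez 19294, chromosome 7, 19716644 to 19749573), also known as a ligand of immune receptors, stood at 273.7, 239.5 and 243.3 CPM in control and at 257.5, 255.7 and 307.6 CPM in Grhl2_cKO. The groups overlap for both, and Grhl2_cKO replicate 10 is the highest library for both. The log2 fold change was 0.10 ± 0.08 for Nectin1 (SE; 95% interval -0.08 to 0.27; edgeR adjusted p = 0.743). For Nectin2 it was 0.12 ± 0.08 (SE; 95% interval -0.07 to 0.31; edgeR adjusted p = 0.70). Neither interval overlaps that of Nectin4 or of Ceacam1.

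Afadin (Afdn, Entrez 17356, chromosome 17, 13760391 to 13905798), the shared adaptor of the nectins, was near its control level in each knockout library. It stood at 439.1, 425.8 and 455.5 CPM in the controls, then 433.7, 450.3 and 429.9 CPM in the knockouts. The knockout values lie inside the range of the controls. The log2 fold change was -0.01 ± 0.06 (SE; 95% interval -0.14 to 0.12; edgeR adjusted p = 0.991), and its sign turned under 6 of the 16 alternatives. With 5881 to 7267 counts per library it was the most deeply counted of the 6 genes and had the smallest standard error among them.

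**Figure D2:**
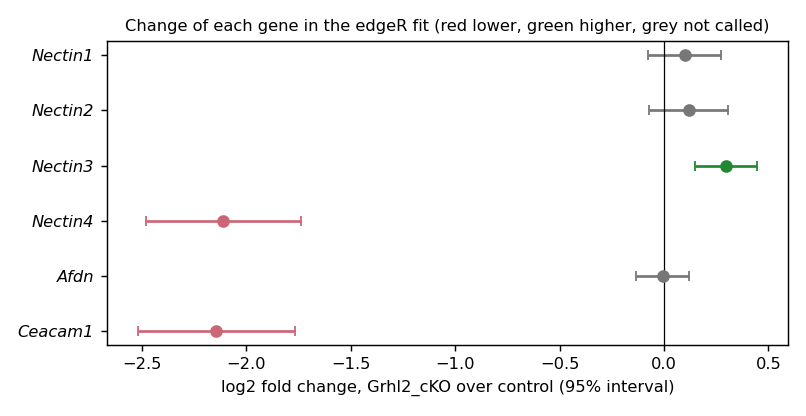
Log2 fold change of each gene, Grhl2_cKO over control (horizontal axis), with its 95% interval from the edgeR fit (n = 3 per group). Nectin4 and Ceacam1 lie at -2.11 and -2.14, while the intervals of Nectin1, Nectin2 and Afdn cover 0.

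The genes that fell were lower in Grhl2_cKO in both sexes, by a larger amount in the males. In males (2 control and 2 Grhl2_cKO libraries) the difference of mean log2 CPM, Grhl2_cKO minus control, was -2.35 for Nectin4 and -2.25 for Ceacam1. In the 1 female pair (control replicate 7 and Grhl2_cKO replicate 1) it was -1.72 for Nectin4 and -1.97 for Ceacam1. For Nectin3 the difference was 0.33 in males and 0.23 in the female pair. A female pair holds 1 library per genotype, so these values have no replicate check, and whether the sexes differ was not tested. The female knockout was also the library with the highest summed heart muscle markers (235.6 CPM, against 30.2 to 55.0 CPM in the others).

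Levels can be compared between genes only per length, here as CPM per 1000 bases of exon (RPKM). In control Nectin2 was the highest at 73.2 ± 5.44 RPKM (SD, n = 3), followed by Afdn at 59.6 ± 2.02, Nectin3 at 19.03 ± 1.04, Nectin1 at 13.4 ± 0.66, Nectin4 at 5.44 ± 0.09 and Ceacam1 at 2.37 ± 0.18 RPKM. In Grhl2_cKO the order was the same, with means of 79.4 RPKM for Nectin2, 59.3 for Afdn, 23.4 for Nectin3, 14.4 for Nectin1, 1.26 for Nectin4 and 0.54 for Ceacam1. No 2 neighbours in this order overlapped between their libraries within a genotype. Nectin4 and Ceacam1 were thus the 2 lowest of the 6 already in control, with 35.5% and 22.9% of tested genes at a lower control level per length, against 93.7% for Nectin2.

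Within the nectin family the share of Nectin4 dropped. Of the counts of the 4 nectins, Nectin4 made up 4.34%, 4.78% and 4.59% in the controls and 1.33%, 0.977% and 0.693% in the knockouts. The groups do not overlap (4.57% ± 0.22 against 1.00% ± 0.32, SD, n = 3 each; exact permutation test, two-sided, p = 0.1, the smallest that 3 against 3 allows). The share of Nectin3 went from 18.9% ± 0.36 to 21.7% ± 0.72, also without overlap (exact permutation p = 0.1). Nectin2 held 60.3% ± 0.93 and 61.04% ± 1.01 of the counts and Nectin1 16.3% ± 0.47 and 16.3% ± 0.52, with overlapping libraries (exact permutation p = 0.5 and 0.9). A share within a library does not depend on how libraries are scaled. The 4 shares add up to a whole, so a lower share of Nectin4 raises the other shares even where their levels are unchanged. The summed nectin level was 418.2 ± 25.9 CPM in control and 447.8 ± 41.0 CPM in Grhl2_cKO (exact permutation p = 0.4). The libraries of the groups overlap in this sum, and with 3 against 3 the test could not have gone below 0.1.

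**Figure D3:**
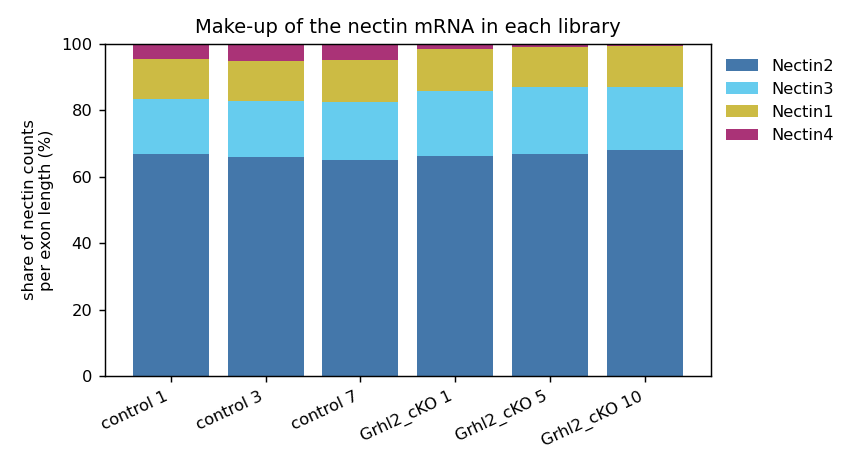
Share of each nectin in the summed nectin counts per exon length (vertical axis, percent), 1 bar per library. Nectin4, at the top of each bar, makes up 4.65% to 5.13% in control libraries and 0.747% to 1.44% in Grhl2_cKO libraries.

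The nectin-like proteins of the Cadm family and Pvr, and the immune receptors that bind nectins, gave no call by edgeR among 5 tested of 10 listed genes, whose median log2 fold change was 0.12 (2 at an unadjusted p under 0.05; 0 by DESeq2 and 0 by limma-voom). For 3 of the 5, Cadm4 and Pvr among them, every Grhl2_cKO library lay above every control library, as for 8.17% of all tested genes. The log2 fold change of Cadm4 was 0.36 ± 0.11 SE (edgeR adjusted p = 0.115) and it was called without control replicate 1 (adjusted p = 0.0348; 0.0348 to 0.351 over its alternatives). For Pvr it was 0.16 ± 0.07 SE (edgeR adjusted p = 0.303). The receptors Cd226, Cd96, Crtam and Tigit were too low to be tested.

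Among 24 listed partners of afadin, all tested, 2 fell and 1 rose, with a median log2 fold change of -0.02 against -0.0039 over all tested genes. Of all tested genes 2.39% were lower and 1.23% higher. Ssx2ip, which encodes an afadin-binding protein of the adherens junction, stood at 109.4, 94.9 and 97.8 CPM in the controls, then 65.5, 68.6 and 66.4 CPM in the knockouts. Its knockout libraries lie within a narrow band below every control, at 66.4% of control (edgeR adjusted p = 0.00121, log2 fold change -0.59 ± 0.07 SE). Jam3, an immunoglobulin-type junction protein, stood at 12.02, 11.4 and 10.7 CPM in control and at 19.7, 23.5 and 23.1 CPM in Grhl2_cKO, a rise of 1.94-fold with no overlap (edgeR adjusted p = 0.00108, log2 fold change 0.96 ± 0.11 SE). F11r, the related junction protein JAM-A, fell to 82.0% of control (edgeR adjusted p = 0.0333). It was no longer called when sex was a covariate (adjusted p = 0.0588) or without control replicate 1 (0.0935), 3 (0.105) or 7 (0.0576) or Grhl2_cKO replicate 5 (0.143) or 10 (0.098), in a range of 0.00891 to 0.143. The other 21 partners, among them Cdh1, the catenin genes Ctnna1, Ctnnb1 and Ctnnd1, Plekha7 and Tjp1, did not pass.

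Of 14 genes that act in signalling from nectins, 1 rose and none fell by edgeR (1.23% and 2.39% of all tested genes), with a median log2 fold change of 0.03. The gene that rose, the receptor tyrosine kinase gene Fgfr1, stood at 71.1, 78.05 and 84.7 CPM in the controls, then 96.9, 95.8 and 95.1 CPM in the knockouts (1.23-fold, edgeR adjusted p = 0.0449). That call was lost under 7 alternatives: total-count scaling (adjusted p = 0.056), no filter (0.0552), and without control replicate 1 (0.0802) or 3 (0.146) or Grhl2_cKO replicate 1 (0.124), 5 (0.135) or 10 (0.106), in a range of 0.0116 to 0.146. The kinase Src and the small GTPases Rac1 and Cdc42, which act below nectins, had log2 fold changes of 0.04, 0.04 and 0.02 and did not pass. These 3 and the partners that did not pass were named after their values were seen.

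The other Ceacam genes were nearly silent. Of 14 listed members 9 were at 0 in each library and none reached the test. Ceacam2, the close paralog of Ceacam1, held 5, 9 and 8 counts in control and 8, 3 and 4 counts in Grhl2_cKO. Reads that fit both paralogs can be split or lost in counting, so the counts of Ceacam1 are uncertain to that extent. Of 15 genes whose products bind or act with Ceacam1, 14 were tested, with a median log2 fold change of 0.04, and none was called by edgeR (2 at an unadjusted p under 0.05; 0 by DESeq2 and 0 by limma-voom). Ptpn6, a phosphatase recruited by the Ceacam1 tail, stood at 29.7, 28.8 and 26.7 CPM in control and 37.2, 35.9 and 33.1 CPM in Grhl2_cKO, without overlap, and did not pass (edgeR adjusted p = 0.0603, log2 fold change 0.32 ± 0.08 SE). For Flna, which encodes the actin cross-linker filamin A, it was 0.18 ± 0.07 (SE, edgeR adjusted p = 0.303).

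**Figure D4:**
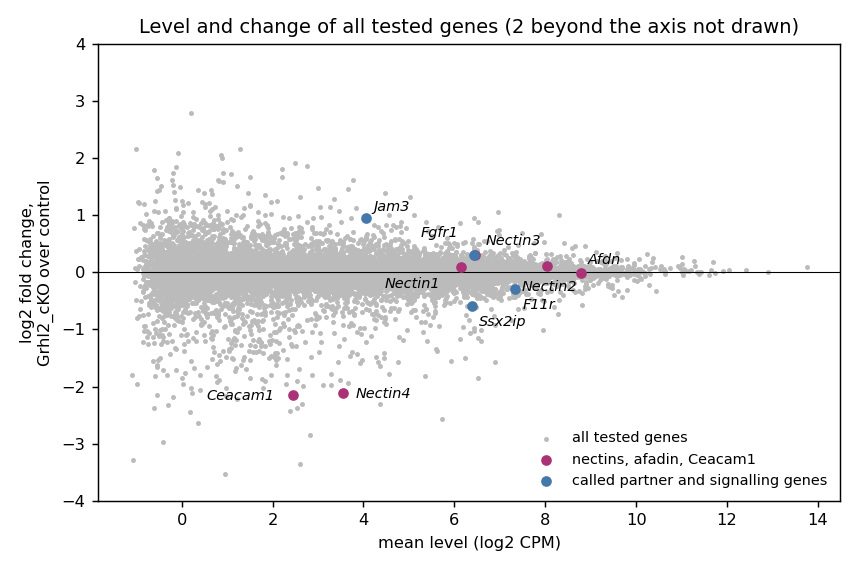
Mean level (horizontal axis, log2 CPM) and log2 fold change, Grhl2_cKO over control (vertical axis), of all tested genes in grey, with the 6 genes in purple and the called partner and signalling genes in blue; the points of Fgfr1 and Nectin3 coincide. Nectin4 and Ceacam1 lie near -2, below most genes of their level.

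Genes beside the 6 on the chromosome were read as well. Of the 12 nearest tested genes, 1 on each side of each, none was called by edgeR (1 at an unadjusted p under 0.05; 0 by DESeq2 and 0 by limma-voom). Some of these 12 lie far off, such as Morc1 at 1932701 bases from Nectin3 and Oaf at 497258 bases from Nectin1. Within 250 kb of Nectin1 and of Nectin3 no gene was tested. Nectin4 lies between Klhdc9 and Usf1, which had log2 fold changes of -0.01 ± 0.12 and -0.06 ± 0.06. Within 250 kb of Nectin4, 18 genes were tested and 2 were lower, F11r and the cilium gene Cfap126 (log2 fold change -1.23 ± 0.24, edgeR adjusted p = 0.02, lost without control replicate 3 or Grhl2_cKO replicates 5 or 10, with 0.00286 to 0.0926 over its alternatives). Within 250 kb of Ceacam1, 18 genes were tested and none was called (0 at an unadjusted p under 0.05; 0 by DESeq2 and 0 by limma-voom). Nectin2 has 17 tested genes in such a window, of which 2 were lower. These were the apolipoprotein gene Apoc1, at 27.7% of control (edgeR adjusted p = 0.00169), and Cblc, at 75.0% (edgeR adjusted p = 0.0186, lost without control replicates 3 or 7 or Grhl2_cKO replicates 5 or 10, with 0.0143 to 0.0777 over its alternatives). Cfap126, Apoc1 and Cblc were named after their values were seen.

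The Nectin2 neighbours Tomm40 and Bcam had log2 fold changes of -0.06 ± 0.06 and -0.01 ± 0.09, and the long noncoding gene 4732471J01Rik, whose span covers Ceacam1, held 14.7 counts on average. No strand setting is stated for the counting, so reads of Ceacam1 and of that gene cannot be told apart where their exons overlap. Afdn overlaps Tcte2, which held 28.7 counts on average.

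The genes with the profile most like that of Nectin4 were found by distance. For 12191 tested genes with a symbol and a mean of 50 or more counts, the log2 CPM in each library was centred on the mean of the gene, and the root mean square difference from Nectin4 was taken over the 6 libraries. Among the nearest 5 were the potassium channel gene Kcnj15 (0.12 on the log2 scale), the transcription factor gene Elf5 (0.16), the vesicle transport gene Mlph (0.16) and Bnipl (0.17), each at 20.3% to 27.8% of control, and Ceacam1 was seventh. For Ceacam1 the nearest 5 included Palm3 (0.16), Nectin4 (0.18), the semaphorin gene Sema4a (0.23) and the cadherin-related gene Fat2 (0.24), each at 23.2% to 28.4% of control. Such distances over 6 libraries in 2 groups mostly reflect a like difference between the groups, and they describe these libraries only.

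Markers of some lung cell types moved with the fall of Nectin4 and Ceacam1. Over all tested genes 2.39% were lower and 1.23% higher, the shares to set beside the counts that follow. In the ciliated list 14 of 17 tested genes were lower and none was higher, with none of the 18 listed genes at 0 and a median log2 fold change of -1.28, and the summed level was 219.2 to 295.7 CPM in control and 101.2 to 147.8 CPM in Grhl2_cKO. In the secretory list 4 of 8 tested genes were lower and none was higher, with Bpifa1 at 0 and a median of -0.99. The 4 were Aldh1a7, Aldh1a1, Lypd2 and Cbr2. Scgb3a2, Cyp2f2, Krt15 and Scgb1a1 were not called, and for Krt15 and Scgb1a1 (edgeR adjusted p = 0.895) the groups overlapped. The sum was 579.03 to 707.8 CPM in control and 256.01 to 411.8 CPM in Grhl2_cKO. Aldh1a7 alone had means of 332.0 CPM in control and 165.9 CPM in Grhl2_cKO. Grhl2_cKO replicate 1, which had the most Nectin4 of the knockouts, also had the highest ciliated and secretory sums among them. That library was likewise the highest knockout for the alveolar type 2, alveolar type 1, immune, mesenchymal, mesothelial and heart muscle sums. It was the lowest for the epithelial and endothelial sums. Ceacam1 was not highest there, at 2.10 CPM against 2.25 CPM in Grhl2_cKO replicate 5. The part of ciliated and secretory cells in the fall of Nectin4 and Ceacam1 was not tested. In the epithelial list 2 of 11 genes, Grhl2 and Epcam, were lower by edgeR, and 8 had a log2 fold change below 0. Krt8 (71.8% of control, edgeR adjusted p = 0.0832) and Cdh1 (83.0%, edgeR adjusted p = 0.21) were not called. In both, every Grhl2_cKO library lay below every control. Foxa1, Foxa2 and Nkx2-1 had log2 fold changes above 0. Of the 11, 5 had an unadjusted p under 0.05 and DESeq2 called 3. The sums did not overlap, at 3392 to 3951 CPM in control and 3007 to 3234 CPM in Grhl2_cKO. They include Grhl2, the deleted gene, and Epcam, the gene of the protein used in the sort (means of 534.1 and 361.0 CPM). Part of this difference is thus built into the list, and whether the sums stay apart without these 2 genes was not tested. In the alveolar type 2 list 2 of 10, Cebpa and Sftpd, were lower, with sums that overlapped, at 18955 to 20965 and 18505 to 22367 CPM. Sftpd, which encodes surfactant protein D, fell to 45.6% of control (edgeR adjusted p = 0.0365). In the same list Napsa stood at 137.0% of control (edgeR adjusted p = 0.0614) and Sftpb at 120.6% (edgeR adjusted p = 0.178), each with every Grhl2_cKO library above every control and neither called. Of the 10 genes, 7 had an unadjusted p under 0.05 and DESeq2 called 5, against 1981 and 669 of the 14842 tested genes. The markers named here were chosen after their values were seen.

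Markers of other cell types that the sort could hold were read in the same way. Endothelial markers summed to 188.5 to 260.5 CPM in control and 238.9 to 252.03 CPM in Grhl2_cKO, and none of 10 was called by edgeR (2 at an unadjusted p under 0.05; 0 by DESeq2 and 0 by limma-voom). Immune markers summed to 8.70 to 12.4 and 9.24 to 16.3 CPM, with Ptprc, which marks leukocytes, at 2 to 10 counts per library. Mesenchymal markers summed to 926.6 to 1487 and 899.5 to 1797 CPM, mesothelial markers to 39.7 to 78.5 and 19.5 to 60.7 CPM, erythroid markers to 20.6 to 57.3 and 19.6 to 57.6 CPM and alveolar type 1 markers to 1302 to 1766 and 1432 to 1703 CPM. Heart muscle markers stood at 235.6 CPM in Grhl2_cKO replicate 1, and the 5 remaining libraries held 30.2 to 55.0 CPM. In the immune, mesenchymal, mesothelial, erythroid, alveolar type 1 and heart lists no gene was called by edgeR, DESeq2 or limma-voom, and 1 mesothelial gene had an unadjusted p under 0.05. That gene, Msln, stood at 29.9 ± 13.9 CPM in control and 9.97 ± 6.54 CPM in Grhl2_cKO (SD, 3 libraries each), without overlap and not called (edgeR adjusted p = 0.0816). The median log2 fold change of the 7 tested heart muscle genes was 1.48. The sums of these 6 lists and of the endothelial list overlapped between the groups.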

How the data were processed

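A single table of raw counts by Entrez gene, with exon lengths, was deposited by the authors for the 6 libraries. Per the submitters' processing notes, bcl2fastq 2.17.1.14, featureCounts, edgeR 3.16.5, limma 3.30.12 and the mm10 build were used. Not given in the sources used here are the aligner, the strand setting and how multi-mapping reads were treated. Per the labels, libraries were stranded mRNA libraries and shared 1 lane.

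RefSeq symbols (GRCm38.p6) matched 25275 of 27179 genes (92.99%). The test fitted all 6 libraries' counts as deposited in edgeR 4.0.16 (R 4.3.3), with TMM, filterByExpr (minimum count 10, minimum total 15), the quasi-likelihood F-test and Benjamini-Hochberg adjustment over 14842 genes (threshold 0.05). Dividing the absolute log2 fold change by the root of F gave its SE. CPM and RPKM were computed here from TMM-scaled totals. Replicate pairs varied beyond counting noise (chi-square per degree of freedom 7.72 to 12.9). The script was tested on simulated data. Identity between nectin proteins was not analysed here.

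Members and lists were chosen with earlier results of these data known. Named genes were the 6, called list members (otherwise the 2 smallest p), nearest neighbours, the 5 nearest profiles, Grhl2 and Epcam. A gene that this rule names is not reported here. The alternatives tried were DESeq2 1.42.0, limma-voom 3.58.1, robust or legacy quasi-likelihood fits, RLE, upper-quartile or total-count scaling, 2 other filters, a sex covariate, and dropping each library in turn.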

Additional observations from a re-analysis of the deposited data

How the results depend on the processing

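Nectin4, Ceacam1, Nectin1 and Nectin2 kept direction and side of the threshold under all 16 alternatives, and the Nectin4 share difference stayed between -3.83 and -3.41 points under its 7. Without 1 library, 249 to 504 genes were called against 537 (302 without control replicate 3, 335 without control replicate 7, 257 and 249 without Grhl2_cKO replicates 5 and 10). Nectin3 lost its call with sex as a covariate (log2 fold change 0.30, adjusted p = 0.0635) and when any library but control replicate 1 was left out. Over all 6 omissions, the one that kept the call included, its log2 fold change was 0.25 to 0.35. Afdn changed sign, never called, with RLE (0.00048), upper-quartile scaling (0.0081), DESeq2 (0.00047) and without 1 library (-0.031 to 0.018). So did, among neighbours, Bcam (0.0021 with upper-quartile scaling; -0.068 to 0.073 without 1 library), Klhdc9 (0.00025; -0.074 to 0.078) and Plcxd2 (-0.20 to 0.0044 without 1 library). As ratios, added after seeing the data, changes were smaller, since Epcam and Cdh1 means are themselves lower. The log2 changes were -1.52 for Nectin4 per Epcam, -1.86 for Ceacam1 per Cdh1 and -1.56 for Ceacam1 per Epcam. Nectin4 per Cdh1 stood at 27.9% of control, against 23.2% in the main fit. The other causes were not tested. No paired analysis was possible because the labels give no pairing of samples. The genotypes share only replicate number 1, and the labels do not say that equal numbers mark a pair. Ceacam1, with 28 to 35 counts in Grhl2_cKO libraries, was the least deeply counted of the 6.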
